A study of Mus musculus with 98 samples.

Results

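The mouse genes examined here are 8 genes used to recognise Kupffer cells, the macrophages of the liver: Adgre1, Csf1r, Cd68, Marco, Vsig4, Timd4, Cd5l and Clec4f. They were taken by symbol from the mouse rows of a liver count table, where each matched 1 of 19689 rows, and all 8 passed the filter on low counts. The animals were 10-week-old male FRGN mice, which lack Fah, Rag2 and Il2rg on a background crossed to the non-obese diabetic strain, so that B, T and NK cells are missing and the animals' own hepatocytes die without nitisinone (NTBC). In both arms hepatocytes had been injected into the spleen, nitisinone was given in cycles, and the animals received sulfamethoxazole with trimethoprim and dextrose in the water and the 5LJ5 diet. The Hu arm received human hepatocytes and the Mu arm, its control, received murine hepatocytes. Livers were taken at 6 zeitgeber times (ZT, counted in hours from the moment the lights come on), ZT 2, 6, 10, 14, 18 and 22. There were 15 Hu livers (3 at ZT 2, 6 and 18 and 2 at the other times) and 12 Mu livers (2 at each time). In the GENCODE M21 annotation of GRCm38 the genes lie on chromosomes 17 (Adgre1, chr17:57358691-57483527), 18 (Csf1r, chr18:61100598-61132149), 11 (Cd68, chr11:69664213-69666153, and Timd4, chr11:46810800-46844332), 1 (Marco, chr1:120474538-120505024), X (Vsig4, chrX:96247203-96293438), 3 (Cd5l, chr3:87357881-87371073) and 6 (Clec4f, chr6:83644542-83656187). Counts are per whole gene. Nothing in the labels says which samples of liver and muscle came from the same animal.

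Kupffer cells line the liver sinusoids, where they clear bacteria, aged blood cells and debris from portal blood. Most are seeded before birth and renew themselves locally under CSF1 and IL34, which signal through the receptor CSF1R. Signals from neighbouring endothelial and stellate cells, among them Notch ligands, BMPs and TGF-beta, keep up their identity through factors such as LXR-alpha, ID3 and SPIC. When Kupffer cells are lost, circulating monocytes can enter the empty niche and take on Kupffer features, with Timd4 as a late marker of long residence. Adgre1 (which encodes F4/80), Csf1r and Cd68 are made by macrophages of most tissues, whereas Clec4f is nearly restricted to Kupffer cells, and Cd5l, Timd4, Vsig4 and Marco mark resident macrophages of few tissues.

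The bases before the start sites of Timd4, Vsig4 and Cd68 are shown as examples for the differences between arms described next. Timd4 is a resident gene that did not pass the test, and Vsig4 is 1 that passed. Cd68 is the shared macrophage gene with the highest difference. Clec4f and Cd5l had smaller differences than Timd4, so these genes do not cover the whole range. Each window holds the 250 bases before the start site in RefSeq (GRCm38.p6), read 5′ to 3′ on the gene's strand, and capitals mark GAGGAA, the core that PU.1 (Spi1) binds, or TGCTGA, a short site bound by MAF, on either strand (reverse complements TTCCTC and TCAGCA).
Timd4, chr11:46810549-46810798, plus strand: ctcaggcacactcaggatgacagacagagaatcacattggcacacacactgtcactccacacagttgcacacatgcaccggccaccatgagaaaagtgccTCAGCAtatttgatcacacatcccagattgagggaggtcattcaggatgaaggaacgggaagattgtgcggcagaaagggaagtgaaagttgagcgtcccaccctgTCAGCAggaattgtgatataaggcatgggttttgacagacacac
Vsig4, chrX:96293439-96293688, minus strand: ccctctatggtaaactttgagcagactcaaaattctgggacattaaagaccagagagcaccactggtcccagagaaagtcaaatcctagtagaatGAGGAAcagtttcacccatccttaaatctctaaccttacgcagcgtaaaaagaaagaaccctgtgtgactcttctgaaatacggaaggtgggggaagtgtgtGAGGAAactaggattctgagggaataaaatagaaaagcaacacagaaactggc
Cd68, chr11:69666171-69666420, minus strand: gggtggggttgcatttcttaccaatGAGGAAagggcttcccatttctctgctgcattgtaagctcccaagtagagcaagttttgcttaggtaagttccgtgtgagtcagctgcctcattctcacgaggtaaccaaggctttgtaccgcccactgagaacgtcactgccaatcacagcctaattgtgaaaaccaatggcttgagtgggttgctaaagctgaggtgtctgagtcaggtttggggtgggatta
GAGGAA stood at -225 in Cd68 and at -155 and -53 in Vsig4, counted from the start site, and TGCTGA stood at -150 and -44 in Timd4, on the opposite strand. Of the 8 genes, Adgre1 had no window at hand and Csf1r was left out of the search. Windows of the other 6 were searched, of which 4 held GAGGAA (Cd68, Vsig4, Marco and Cd5l) and 3 held TGCTGA (Clec4f, Cd5l and Timd4). Of 32851 windows of this length, 23.3% held the first and 16.1% the second, and the 2 motifs did not overlap in these genes. These matches describe letters only.

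Mouse counts per liver, in units of 1000000 counts, ranged from 97.1 to 118.3 in the Mu arm and from 7.70 to 87.9 in the Hu arm, where human rows took 15.86 to 93.07% of all counts (median 58.7%), against 0.0059 to 0.0204% in Mu livers. The labels state that mice with over 70% repopulation were used, and 4 of the 15 Hu livers had over 70% human counts, which is a share of RNA and not of cells. Levels are given as CPM, counts per 1000000 mouse counts after scaling by trimmed means of M values (TMM), and differences as log2 of Hu over Mu with their standard error (SE) from edgeR's quasi-likelihood test, with p-values adjusted by the Benjamini-Hochberg method over 14977 mouse genes. In Mu livers the mouse total includes the grafted hepatocytes, while in Hu livers the human hepatocytes lie outside it. Of 9 hepatocyte genes 8 were lower in Hu livers on this scale, with a median log2 difference of -1.29. For that reason each difference of the 8 genes is also given over all counts, human and mouse (CPM of all counts), and relative to 9 genes of sinusoidal endothelium, and gene lists are counted over mouse RNA and over all counts. In whole liver, fewer cells of a type and less RNA per cell cannot be told apart.

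Relative to mouse RNA, 5 of the 8 genes rose in Hu livers (Csf1r, Cd68, Adgre1, Marco and Vsig4) and none fell, while 42.5% of all genes tested rose and 37.0% fell. The median of the 8 log2 differences was 0.62, against 0.07 over all genes. The genes shared by macrophages of most tissues moved the most, 2.09 to 2.27-fold, and Clec4f, the gene most restricted to Kupffer cells, the least. In CPM of all counts the same 5 genes did not pass as higher, none of the 8 rose, and Clec4f, Cd5l, Timd4 and Vsig4 fell. The share of all genes that rose on this scale was 17.5% and the share that fell was 60.0%, with a median log2 difference of -0.68.

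Csf1r encodes the receptor on which survival of Kupffer cells depends. It lay at 54.2, 71.0 and 93.9 CPM (lowest, median and highest) in Mu livers and at 73.3, 130 and 390 CPM in Hu livers. Of the 15 Hu livers 13 lay above every Mu liver. The log2 difference was 1.17 ± 0.19 (SE; adjusted p = 4.71e-06).

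Cd68, a lysosomal glycoprotein of phagocytes, had lowest, median and highest levels of 18.2, 21.99 and 35.9 CPM in Mu livers and of 23.1, 44.5 and 141 CPM in Hu livers. The log2 difference was 1.18 ± 0.20 (SE; adjusted p = 1.01e-05), with 11 Hu livers above every Mu liver. Adgre1, the adhesion receptor F4/80, spanned 24.5 to 49.7 CPM with a median of 32.1 in Mu livers and 33.7 to 183 CPM with a median of 56.3 in Hu livers. Its log2 difference was 1.06 ± 0.18 (SE; adjusted p = 1.27e-05), and 10 Hu livers exceeded every Mu liver. For each of these 3 genes all 15 Hu livers lay above the Mu median, and the arms overlapped in the lowest Hu livers.

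Vsig4, the complement receptor with which Kupffer cells catch opsonised bacteria, spanned 38.8 to 65.4 CPM with a median of 46.4 in Mu livers and 42.9 to 152 CPM with a median of 55.6 in Hu livers. The rise was smaller, at 0.44 ± 0.13 (SE; adjusted p = 0.00409), and 9 of the 15 Hu livers lay within the Mu range. Marco, a scavenger receptor for bacteria and particles, was the most variable of the 8, with 3.08 to 29.1 CPM in Mu livers (median 7.46) and 4.89 to 98.0 CPM in Hu livers (median 11.8). Its log2 difference of 0.81 ± 0.35 (SE) passed narrowly (adjusted p = 0.0399), and 13 Hu livers lay within the Mu range. Without the Hu liver of ZT 14 replicate 2, which held the highest Marco level, the difference was 0.49 (adjusted p = 0.154), and 14 of the 27 single livers ended the call when left out.

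Timd4, a receptor for phosphatidylserine on dying cells, had medians of 11.9 CPM in Mu livers (8.66 to 18.2) and 13.1 CPM in Hu livers (9.67 to 53.4). The log2 difference of 0.33 ± 0.20 (SE) did not pass (adjusted p = 0.123). Cd5l, a secreted protein of resident macrophages that acts on lipid metabolism and cell survival, had medians of 261.5 CPM (208 to 449) and 303 CPM (198 to 909), with a difference of 0.31 ± 0.18 (SE; adjusted p = 0.126). Clec4f, a C-type lectin of Kupffer cells, had medians of 213 CPM in Mu livers (182.5 to 322) and 222 CPM in Hu livers (90.9 to 643). Its log2 difference was 0.09 ± 0.17 (SE; adjusted p = 0.635), and Hu livers lay on both sides of the Mu range, 2 above and 3 below.

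**Figure D1:**
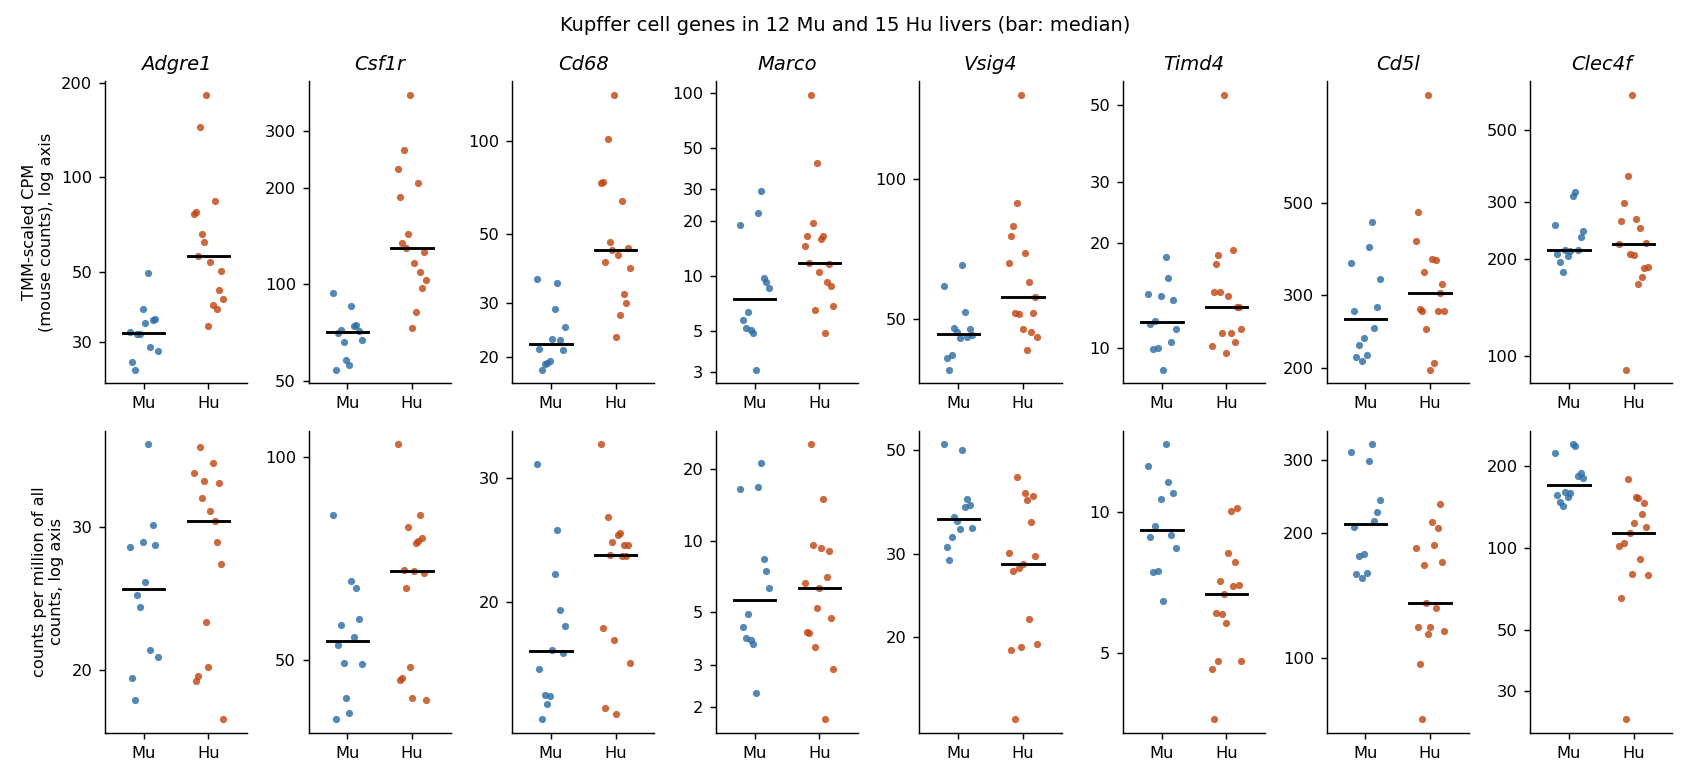
Level of the 8 genes in each liver, 12 Mu (blue) and 15 Hu (orange), as CPM of mouse counts (top) and CPM of all counts (bottom), on log axes; bars are medians. All 15 Hu livers lie above the Mu median for Adgre1, Csf1r and Cd68 in the top row, and 11 Hu livers lie below every Mu liver for Clec4f in the bottom row.

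Scaling to all counts moved every gene down. Clec4f had medians of 170 and 113 CPM of all counts in Mu and Hu livers, and 11 Hu livers lay below every Mu liver. Its log2 difference on this scale was -0.75 (adjusted p = 0.00155). Timd4 fell by 0.59 (adjusted p = 0.000781), Cd5l by 0.58 (adjusted p = 0.00585) and Vsig4 by 0.40 (adjusted p = 0.0321), all on the log2 scale. Csf1r, at 0.26 (adjusted p = 0.153), Cd68, at 0.26 (adjusted p = 0.131), Adgre1, at 0.15 (adjusted p = 0.366), and Marco, at -0.02 (adjusted p = 0.958), did not pass.

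Endothelial genes gave nearly the same picture. Relative to them Csf1r was higher by 0.33 (adjusted p = 0.0463) and Cd68 by 0.32 (adjusted p = 0.0428), which makes 2 of 8 against 19.8% of all genes. Clec4f, at -0.69, Cd5l, at -0.52, Timd4, at -0.51, and Vsig4, at -0.33, were lower (adjusted p from 0.00164 to 0.0431), which makes 4 of 8 against 59.2% of all genes. With mouse totals and no scaling factor, all 8 genes were higher, from 0.82 for Clec4f to 1.94 for Cd68, but so were 72.6% of all genes, with a median log2 difference of 0.74. The direction for Clec4f, Cd5l, Timd4 and Vsig4 thus flips with the scale. A scaling moves all genes of a liver alike, so it leaves the order of the genes nearly as it was.

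**Figure D2:**
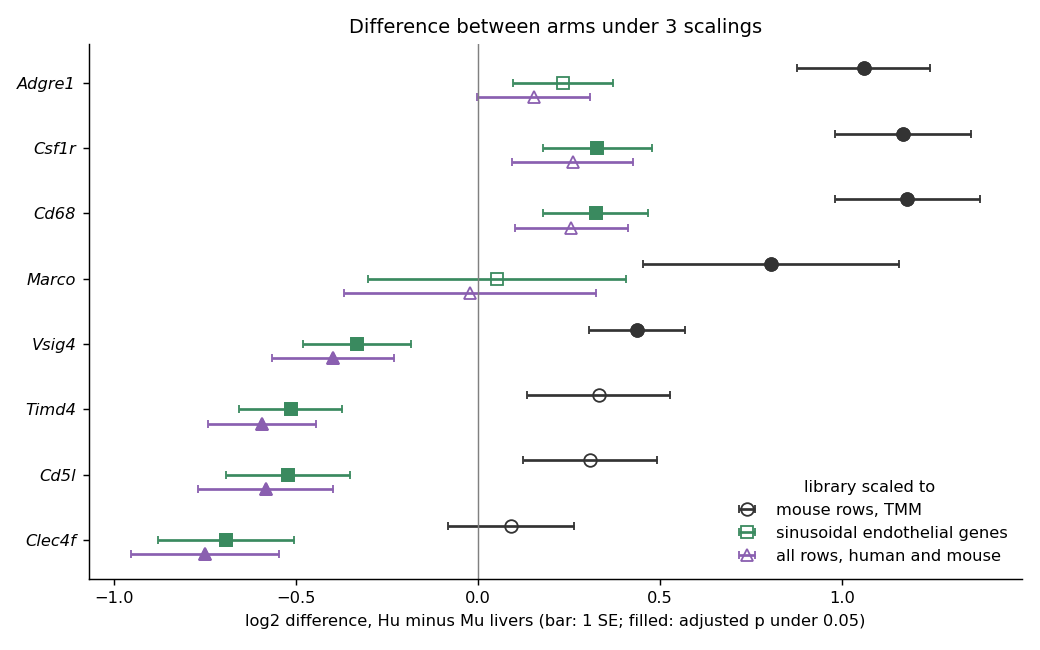
Log2 difference (Hu minus Mu livers, ± 1 SE) of each gene with libraries scaled to mouse rows by TMM (circles), to sinusoidal endothelial genes (squares) or to all rows (triangles); filled symbols have adjusted p under 0.05. Adgre1, Csf1r and Cd68 stay at or above 0 in all cases, while Vsig4, Timd4, Cd5l and Clec4f lie below 0 under the latter scalings.

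A ratio of counts of 2 genes within a liver does not depend on any scaling. There were 15 ratios of a resident gene (Clec4f, Cd5l, Timd4, Vsig4 or Marco) to a shared one (Csf1r, Cd68 or Adgre1), and all 15 had a lower mean log2 in Hu livers. Each resident gene had a smaller log2 difference than each shared one, so this count restates the differences given above. The split by role was made with the levels known, so the ratios are described without a test. Clec4f counts were 2.53 to 4.36 times those of Csf1r in Mu livers (median 3.38) and 0.347 to 2.81 times in Hu livers (median 1.78), with 13 of 15 Hu livers below every Mu liver. The Timd4 to Csf1r ratio was 0.140 to 0.243 in Mu livers and 0.0443 to 0.137 in Hu livers, and there the arms did not overlap. Of the 15 ratios it was the only 1 without overlap. For Timd4 to Cd68 and Timd4 to Adgre1, 10 and 6 Hu livers lay below every Mu liver. For Cd5l to Cd68 the values were 9.35 to 13.65 in Mu livers and 2.70 to 10.1 in Hu livers. There 14 Hu livers lay below every Mu liver, against 10 for Cd5l to Adgre1. Marco differed from the other resident genes: its ratio to Csf1r was below the Mu median in 9 of 15 Hu livers.

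**Figure D3:**
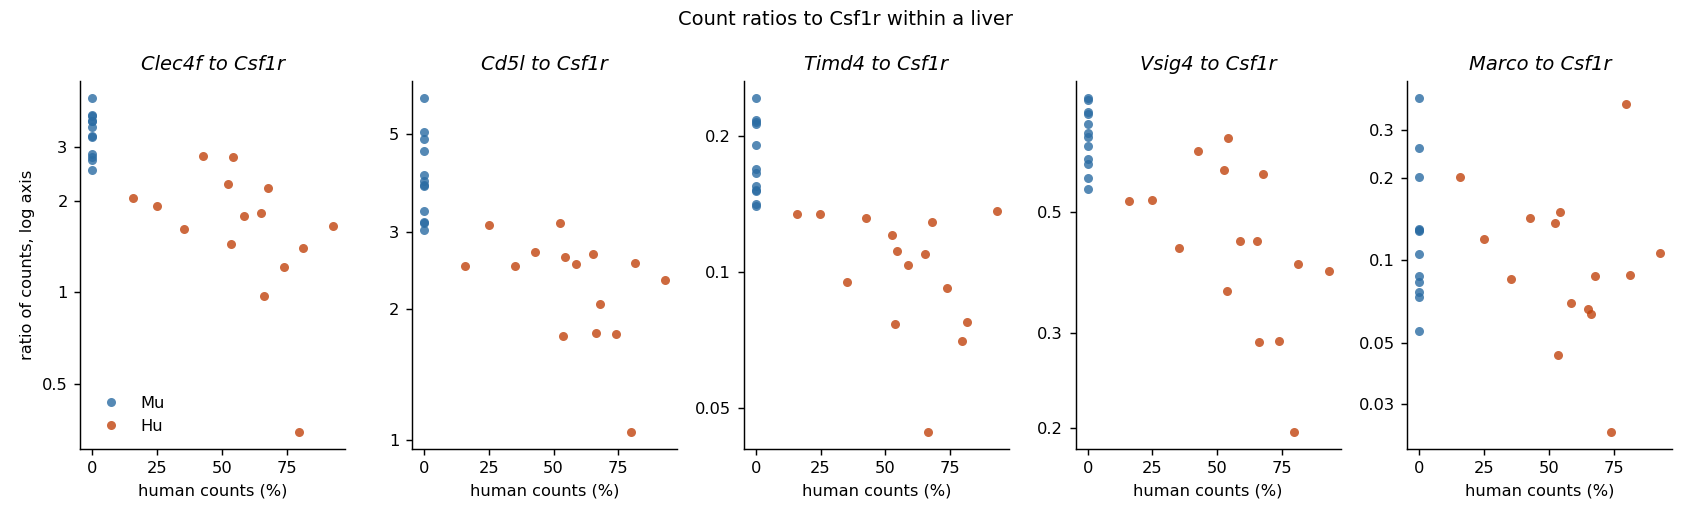
Ratio of counts of each resident gene to Csf1r within a liver (log axis) against the percentage of human counts; Mu livers (blue) lie at 0. Hu livers (orange) lie lower for Clec4f, Cd5l, Timd4 and Vsig4, with no overlap for Timd4, and overlap the Mu range for Marco.

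The Hu liver of ZT 14 replicate 2, with 79.8% human counts, stood apart. It held the lowest Clec4f (90.9 CPM, against at least 168 CPM in the other Hu livers) together with the highest Marco (98.0 CPM), while Adgre1 was at 145 CPM and Timd4 at 18.5 CPM. Its Clec4f to Csf1r ratio of 0.347 was the lowest of all livers. The other Hu liver that stood apart was ZT 18 replicate 3, which had the highest human share and the fewest mouse counts. In CPM of mouse counts, though not in CPM of all counts, it had the highest level of every gene but Marco. Without it the log2 differences of Csf1r, Cd68 and Adgre1 were 1.02, 1.02 and 0.92, and those of Timd4, Cd5l and Clec4f were 0.11, 0.12 and -0.05.

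Per kilobase of exon (GENCODE M21) the order of median CPM in Mu livers was Cd5l (128), Clec4f (86.1), Vsig4 (31.3), Cd68 (17.5), Csf1r (12.3), Adgre1 (9.92), Timd4 (5.45) and Marco (3.87). Each gene exceeded the next in all 12 Mu livers, apart from Csf1r over Adgre1 (9 of 12) and Timd4 over Marco (8 of 12). In Hu livers Cd5l (149) was highest in all 15, and Clec4f (89.8) came next in 14 of 15; in the liver of ZT 14 replicate 2 it stood below Cd68, Marco, Csf1r and Adgre1. Vsig4 (37.5) exceeded Cd68 (35.4) in only 8 of 15 Hu livers, and Marco (6.12) exceeded Timd4 (6.04) in 9 of 15, so that neither pair can be put in order there.

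Of 10 regulators of Kupffer identity 5 rose and 2 fell relative to mouse RNA, with a median log2 difference of 0.38, where 42.5% of all genes rose and 37.0% fell. Zeb2, which keeps up tissue macrophage identity, rose by 1.70 ± 0.23 (SE), Irf8 by 1.17 ± 0.19, Maf by 1.003 ± 0.18, Spi1 (PU.1, needed by all macrophages) by 0.89 ± 0.20 and Spic by 0.66 ± 0.16, all on the log2 scale (adjusted p from 4.88e-07 to 0.000688). Nr1h3, which encodes LXR-alpha and is also made by hepatocytes, fell by 1.27 ± 0.08 (adjusted p = 9.51e-13), and Id3 fell by 0.39 ± 0.15 (adjusted p = 0.0243). Id1, at 0.10, and Smad4, at -0.05, were among those that did not pass. In CPM of all counts Zeb2 alone passed as higher (0.72), while 5 of the 10 were lower, where 60.0% of all genes fell.

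Signals to the Kupffer cell were higher as a list on the mouse scale: all 7 rose, where 42.5% of all genes rose. The CSF1R ligands Csf1 and Il34 rose by 1.12 ± 0.18 and 0.97 ± 0.18 (SE, log2), the Notch ligands Dll1 and Dll4 by 0.84 and 0.53, the BMPs Gdf2 and Bmp10 by 1.30 and 1.26, and Tgfb1 by 1.24 (adjusted p from 4.84e-06 to 0.0035). In CPM of all counts none of the 7 was higher and Dll4 was lower, by a log2 difference of -0.35 (adjusted p = 0.0187). Downstream of CSF1R, 8 of 10 genes rose, among them Plcg2 by 1.56 ± 0.18, and none fell on the mouse scale. Over all counts, 2 of these 10 were higher and 2 lower, where 17.5% of all genes rose and 60.0% fell.

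Of 10 further genes of Kupffer cells 7 rose and 1 fell relative to mouse RNA, where 42.5% of all genes rose and 37.0% fell. In CPM of all counts 2 were higher and 3 lower, where 17.5% of all genes rose and 60.0% fell. Slc16a9 rose by 1.44 ± 0.18, Hmox1, which breaks down haem, by 1.39 ± 0.14 and Siglec1 by 0.81 ± 0.18 (SE, log2). Folr2, at 0.29 (adjusted p = 0.181), and Cd163, at 0.10 (adjusted p = 0.703), did not pass. C6, a complement component made by hepatocytes as well, fell by 3.96 ± 0.18 (adjusted p = 7.49e-15). Cdh5, counted among the 7 that rose, is not a gene of Kupffer cells alone. In muscle, scaled on its own, it had medians of 88.7 CPM in Hu and 129 CPM in Mu samples. Of 12 genes of macrophages in general 11 rose, with a median log2 difference of 0.95, and Mpeg1 (-0.01, adjusted p = 0.96) was the exception. Over all counts, 3 of the 12 were higher and 1 lower, with a median of 0.05.

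Markers of other myeloid cells moved with these genes. For the counts that follow, 42.5% of all genes rose and 37.0% fell relative to mouse RNA. Over all counts the shares were 17.5% and 60.0%. All 8 monocyte genes rose, with a median log2 difference of 1.90, led by Cx3cr1 at 3.88 ± 0.30, Itgam at 2.66 ± 0.34 and Ccr2 at 2.19 ± 0.31 (SE). Their summed level was 19.9 to 50.6 CPM in Mu livers and 42.2 to 221 CPM in Hu livers, and Cx3cr1, Itgam and Ccr2 were also higher in CPM of all counts (2.96, 1.76 and 1.26). Of 9 genes of lipid-associated macrophages 8 rose, Trem2 by 2.57 ± 0.30 and Gpnmb by 2.49 ± 0.41, and 1 fell, Fabp5 (-1.43 ± 0.24). Over all counts, 4 of the 8 monocyte genes and 6 of the 9 lipid-associated genes were higher. Of 7 neutrophil genes 5 rose and of 6 dendritic cell genes 4 rose relative to mouse RNA. On the scale of all counts 1 neutrophil gene was higher and 1 lower, and 1 dendritic cell gene was higher and 2 lower. Of 9 lymphocyte genes only Cd4 passed the filter on low counts, and it fell by 1.99 ± 0.25 (SE, log2). In a single Hu liver the summed lymphocyte genes reached 14.4 CPM, against at most 7.37 CPM in Mu livers. All 9 endothelial genes rose on the mouse scale (median 0.81), as did 7 of 8 stellate genes and all 6 bile duct genes. Scaled to all counts, 2 endothelial genes were higher and 2 lower, 4 stellate genes were higher and 1 lower, and all 6 bile duct genes were higher. The part of these cells in the levels of Csf1r, Cd68 and Adgre1 was not tested.

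Among the 15 Hu livers, 6 of the 8 genes rose with the human share on the mouse scale and none fell, while 24.4% of all genes rose with the share and 22.9% fell. Slopes are log2 differences per 10 percentage points of human counts. They were 0.29 for Cd68 (adjusted p = 6.80e-05), 0.26 for Adgre1 (adjusted p = 0.000396), 0.26 for Csf1r (adjusted p = 0.000188), 0.21 for Timd4 (adjusted p = 0.00482), 0.18 for Cd5l (adjusted p = 0.0053) and 0.15 for Vsig4 (adjusted p = 0.0101). Marco, at 0.25 (adjusted p = 0.0694), and Clec4f, at 0.15 (adjusted p = 0.0647), did not pass. The liver of 93.07% human counts carried 3 of these calls. Without it the slopes of Timd4, Cd5l and Vsig4 were 0.09, 0.10 and 0.08 (adjusted p from 0.0639 to 0.138), and those of Cd68, Adgre1 and Csf1r remained past the threshold at 0.25, 0.22 and 0.22. With a cosine and sine of ZT added, Vsig4 did not pass (0.12, adjusted p = 0.0758). Cd68, Adgre1 and Csf1r also remained without the 2 livers farthest from the median share, which also left Clec4f at 0.01.

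In CPM of all counts the slopes of all 8 genes were below 0, and those of 4 resident genes passed. Clec4f fell by 0.19, Vsig4 by 0.18, Cd5l by 0.15 and Timd4 by 0.13 per 10 points (adjusted p from 0.000995 to 0.00966). None of the 8 rose, and on this scale 82.5% of all genes fell and 0.381% rose, as human counts entered the total. Cd68, at -0.03, Adgre1, at -0.06, Csf1r, at -0.06, and Marco, at -0.06, did not pass. Relative to endothelial genes Vsig4 alone passed, at -0.12 (adjusted p = 0.0171), which is 1 of 8 lower and 0 higher, where 78.0% of all genes fell with the share and 1.62% rose. The endothelial genes themselves had a median slope of 0.30 on the mouse scale. Mouse depth falls as the human share rises by construction, and the 2 cannot be told apart here.

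**Figure D4:**
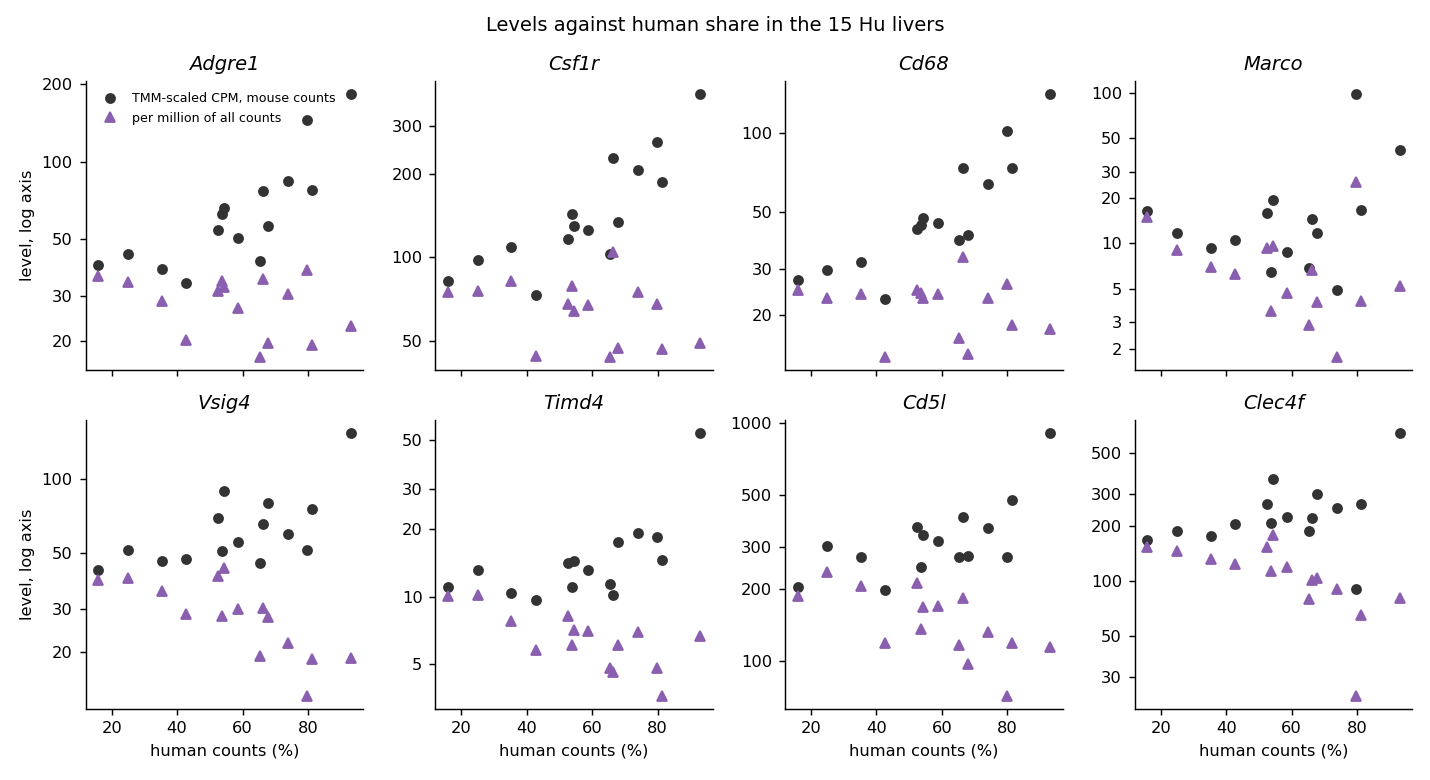
Level of each gene in the 15 Hu livers against the percentage of human counts, as CPM of mouse counts (circles) and CPM of all counts (triangles), on a log axis. CPM of mouse counts rises across the range for Adgre1, Csf1r and Cd68, and less steeply for Timd4, Cd5l and Vsig4. In CPM of all counts every slope is below 0, and those of Clec4f, Vsig4, Cd5l and Timd4 passed.

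Daily rhythm was tested with a cosine of 24 h. In Mu livers none of the 8 genes passed (edgeR, adjusted p from 0.300 to 0.965), while 17.3% of all genes did. At an unadjusted p under 0.05 the count was also 0 of 8, against 31.7% of all genes, and DESeq2 called 0 of 8 and 25.2% of all genes. In Hu livers none passed either (edgeR, adjusted p from 0.140 to 0.533), where 0.167% of all genes did. At an unadjusted p under 0.05, however, 7 of the 8 passed in Hu livers, all but Cd5l, against 15.8% of all genes, and DESeq2 called Adgre1 (adjusted p = 0.0319) and Marco (adjusted p = 0.0440), with 3.45% of all genes. Fitted peaks of all 8 lay between ZT 14.2 and 17.6, with amplitudes (log2, mean to peak) from 0.31 to 1.08. Without the Hu liver of ZT 2 replicate 2, edgeR called 3 genes: Adgre1 (adjusted p = 0.0217), Cd68 (0.0361) and Csf1r (0.0343), with 5.28% of all genes. No other single liver, when left out, gave a call for rhythm in Hu livers among the 8 genes. The liver left out had 73.9% human counts, against 15.9 and 35.3% in the remaining Hu livers of ZT 2.

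Levels by time show what the fit of Adgre1 rests on. Mean Adgre1 in Hu livers was 53.9, 45.1, 77.2, 100.7, 103.8 and 43.8 CPM at ZT 2, 6, 10, 14, 18 and 22, and 32.1, 31.8, 29.2, 28.1, 34.96 and 42.0 CPM in Mu livers. At ZT 14 the 2 Hu livers held 56.3 and 145 CPM, and at ZT 18 the 3 Hu livers spanned 62.5 to 183 CPM. Mean human shares at the 6 times were 41.7, 49.6, 73.8, 73.8, 67.03 and 47.6%, so that the times of high Adgre1 CPM were those of high human share. This did not hold for the means of every gene. At ZT 14 Clec4f (194 CPM) and Cd5l (275 CPM) had their lowest Hu means of the 6 times. The Clec4f mean there joined livers of 90.9 and 297.5 CPM. The Cd5l mean lay close to those of ZT 2 (280 CPM) and ZT 22 (282 CPM). In CPM of all counts none of the 8 genes passed for rhythm in Hu livers, nor did any at an unadjusted p under 0.05, although 57.6% of all genes passed by adjusted p on that scale. Relative to endothelial genes the counts were again 0 and 0, where 0.114% of all genes passed by adjusted p. A different rhythm between arms was called for none of the 8 by edgeR (adjusted p from 0.0868 for Marco to 0.387), against 1.28% of all genes. At an unadjusted p under 0.05 it was 4 of 8, against 3146 of all 14977 genes, and DESeq2 called Marco (adjusted p = 0.0137), with 7.69% of all genes.

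**Figure D5:**
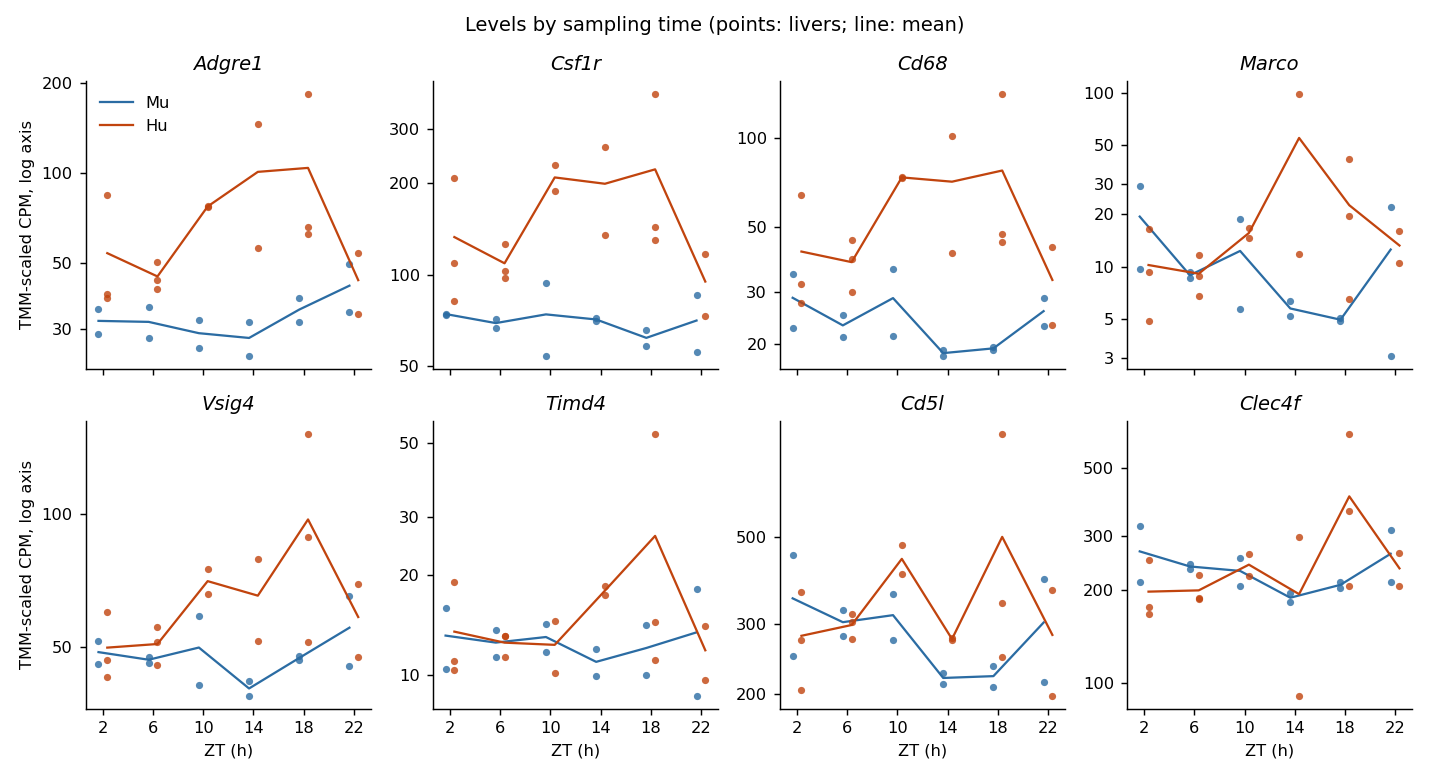
CPM of mouse counts by ZT (h) for each gene on a log axis, with points for livers and lines for the mean of Mu (blue) and Hu (orange) livers. Hu means of Adgre1, Csf1r and Cd68 are highest from ZT 10 to 18, where single livers lie far above the others; Mu means lie below Hu means at every ZT for these 3 genes.

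How the 8 genes vary within arms was described by Pearson's r of their log2 CPM deviations from the arm mean over 27 livers, which share scaling and depth. Csf1r and Cd68 varied together most closely (r = 0.94), and Adgre1 followed both (0.90 and 0.87). Clec4f went with Vsig4 (0.86) and Cd5l (0.74) but less with Csf1r (0.35), Adgre1 (0.30) and Marco (0.15). In Mu livers alone Clec4f and Marco had r = 0.87 over 12 livers, and in Hu livers r = -0.06 over 15. The Hu livers include ZT 14 replicate 2, with the lowest Clec4f (90.9 CPM) and the highest Marco (98.0 CPM) of that arm. The r without that liver was not computed. Over all genes tested, those most like Cd68 were Sirpa (0.98), Cxcl16 (0.98) and Ly9 (0.97), and those most like Csf1r were Syk (0.98), Axl (0.97) and Soat1 (0.97). Adgre1 was closest to Fyb, Entpd1 and Lyn (0.93 to 0.94). For Clec4f they were Vsig4 (0.86), Folr2 (0.85) and Ccl24 (0.81), for Cd5l Folr2 (0.90), Evl (0.89) and Tbxas1 (0.88), and for Vsig4 Clec4f, Tfec and Slc27a3 (0.85 to 0.86). Timd4 was closest to Treml4 (0.89), Ctla2b (0.88) and Il18bp (0.86), and Marco to Clec4a1 (0.84), Fgr (0.82) and Relt (0.79).

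Skeletal muscle of both arms, where no hepatocytes were grafted, was compared on its own scale over 14197 genes. The genes shared by macrophages were also higher in Hu muscle: Cd68 by 1.204 (adjusted p = 0.000884), Adgre1 by 0.71 (adjusted p = 0.00752) and Csf1r by 0.61 (adjusted p = 0.00925), all on the log2 scale. Timd4, at 1.09 (adjusted p = 0.0014), and Vsig4, at 1.21 (adjusted p = 0.00693), rose too. Cd5l, at 2.11, passed narrowly (adjusted p = 0.0459), and 14 of the 27 single samples ended the call when left out. It had 12.6 CPM in Hu muscle of ZT 6 replicate 1, against a median of 0.208 CPM in Hu and 0.0925 CPM in Mu muscle, and without that sample the difference was 0.77 (adjusted p = 0.287). Of 9 hepatocyte genes, which summed to 10.2 to 918 CPM in Hu muscle and to 0.748 to 304 CPM in Mu muscle, Pck1, which fat cells also make, held most of the sum (medians 81.1 and 10.8 CPM). Alb had a median of 0.543 CPM in Hu and 1.604 CPM in Mu muscle. The part of these genes' source in the Cd5l values was not tested. Clec4f and Marco did not pass the filter, with at most 25 and 39 counts in a muscle sample and medians of 0 counts for Clec4f in both arms. So 6 of the 6 genes tested rose, where 13.5% of all genes rose and 13.3% fell, and the filter could favour genes that are high in 1 arm.

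Cd68 spanned 2.52 to 9.07 CPM (median 4.99) in Mu muscle and 5.17 to 31.9 CPM (median 10.0) in Hu muscle, and Csf1r spanned 12.2 to 40.3 CPM (median 21.3) and 19.3 to 47.5 CPM (median 32.2). The arms overlapped for both. For the counts that follow, 13.5% of all genes rose in Hu muscle and 13.3% fell. Of 12 general macrophage genes 11 rose in Hu muscle. Genes of fat cells, a list drawn up after the data were seen, moved with them: 4 of 6 rose, Adipoq by 2.28 and Cfd by 3.04 (log2), and their summed level was 137 to 2286 CPM in Mu and 242 to 2922 CPM in Hu muscle. The part of fat tissue in the muscle values was not tested. Whether the differences in liver and muscle differ from each other was not tested either.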

How the data were processed

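Raw counts of 27 livers, with human and mouse rows apart, and of 27 muscle samples stand in the tables as the authors deposited them. Per the submitters' processing notes STAR was used, with builds GRCm38/mm10, GRCh38/hg38 and hg19 named without a role; the counting program, annotation and filters are not given in the sources used here, and 44 columns of other tissues were not used. Per the labels' protocols the library kit keeps strand.

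Arm, ZT and replicate came from the labels. Mouse rows were fitted with edgeR 4.0.16 (R 4.3.3): library size over mouse rows, filterByExpr by arm, TMM, with terms for arm and, in each arm, for a cosine and sine of 24 h. Quasi-likelihood tests were adjusted by Benjamini-Hochberg over all genes tested, with 0.05 as threshold. Slopes on human share used the 15 Hu livers and the same genes. DESeq2 1.42.0 was an alternative. The scripts were tested on simulated data. Nothing in the labels says whether replicates are separate animals, so p-values measure the spread between these samples. Depth sets precision: the lowest Hu liver had 7.70 mouse counts in units of 1000000. Log2 CPM for correlations used a prior count of 2.

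Genes named are the 8 genes, the 3 genes most like each, members of 3 lists (identity factors, of which 1 is not reported here, other Kupffer genes and niche signals) and, from other lists, those with the largest passing differences; Mpeg1, Pck1 and Alb, chosen after their values were seen, and the fat list are exceptions. The genes and lists were chosen with earlier results of these data known.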

Additional observations from a re-analysis of the deposited data

How the results depend on the processing

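Of the 8 genes 5 were higher in Hu livers, against 8 with no scaling factors. With all rows as library size 0 were higher, and scaled to endothelial genes 2. The number lower was 0, and with the latter scalings 4 and 4. Among all genes 42.5, 72.6, 17.5 and 19.8% were higher, in the same order. The share of all genes lower was 37.0%, and with the latter scalings 60.0 and 59.2%. For rhythm in Hu livers the count was 0, with DESeq2 2, and 0 to 3 when single livers were left out; for a different rhythm it was 0, with DESeq2 1, and 0 to 1 when single livers were left out. For the slope on human share 6 rose; with no scaling factors 8, with DESeq2 7, with the logit of the share 7, with time terms added 5, over all rows 0, scaled to endothelial genes 0, with matched replicate numbers 3, without the 2 livers farthest from the median share 3, without the 2 livers of lowest mouse depth 3, and 3 to 7 without single livers. Of all 14977 genes 3649 rose with the share in the reported fit, 6505 with no scaling factors, 3997 with DESeq2 and 3861 with the logit. With time terms added 3228 of them rose, over all rows 57, scaled to endothelial genes 243, and with matched replicate numbers 2667. Without the 2 livers farthest from the median share 2233 rose, and without the 2 of lowest mouse depth 2555. Without single livers 2587 to 3748 did. Slopes lower numbered 4 over all rows and 1 scaled to endothelial genes, against 0, where 82.5%, 78.0% and 22.9% of all genes fell. Log2 values that changed sign over all rows were -0.75 for Clec4f, -0.58 for Cd5l, -0.021 for Marco, -0.40 for Vsig4 and -0.59 for Timd4, and scaled to endothelial genes -0.69 for Clec4f, -0.52 for Cd5l, -0.33 for Vsig4 and -0.51 for Timd4. Clec4f, never called on the mouse scale except without scaling factors, was -0.013 with the replicate block, -0.023 with matched numbers, -0.066 without the 2 livers of lowest depth, -0.075 with a replicate block of ZT and number, and -0.048 to 0.18 without single livers. Slopes that changed sign over all rows were -0.056 for Adgre1, -0.19 for Clec4f, -0.15 for Cd5l, -0.027 for Cd68, -0.058 for Csf1r, -0.063 for Marco, -0.18 for Vsig4 and -0.13 for Timd4, and scaled to endothelial genes -0.13 for Clec4f, -0.091 for Cd5l, -0.12 for Vsig4 and -0.067 for Timd4; with time terms added Marco was -0.044. The scalings change what a level is relative to; the cause of the other changes was not tested.

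Equal replicate numbers were not taken as pairing the samples, as not every pair had a correlation of deviations over 0.1: of 9 distinct values (0.0129 to 0.3125, all above 0) 5 did. The replicate block left 4 genes higher in liver; Marco lost its call (adjusted p = 0.0676). In muscle it left 5, Cd5l losing its call (adjusted p = 0.0652). Leaving out the 2 livers of lowest mouse depth, or both Hu livers of ZT 14, was chosen after the data were seen. Low mouse depth in Hu livers of high human share limits the slopes, and 2 or 3 livers per time limit the rhythm tests.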
